A study of Drosophila melanogaster with 2 samples.

Results

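The genes described here encode the subunits of the proteasome, the protease complex that degrades ubiquitin-tagged proteins. They are all protein-coding genes on the 6 arms of the Drosophila melanogaster genome whose name starts with Rpn, Rpt, Prosalpha or Prosbeta, 48 of 13945 such genes. The rule uses names alone and no measured value, but the set was chosen with earlier results of these data known. The names fall into 32 core subunit genes and 16 paralogues. Of the paralogues, 10 have names ending in T, T1, T2 or R (Prosalpha1R, Prosalpha3T, Prosalpha4T1, Prosalpha4T2, Prosalpha6T, Rpn12R, Rpn13R, Rpt3R, Rpt4R and Rpt6R). Another 6 end in R1 or R2 (Prosbeta2R1, Prosbeta2R2, Prosbeta4R1, Prosbeta4R2, Prosbeta5R1 and Prosbeta5R2). Both sets are called paralogues below, and the counts are also given for each.

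The data are the peak lists of a chromatin immunoprecipitation sequencing (ChIP-seq) study of vvl-eGFP, a fusion of the POU-domain transcription factor ventral veins lacking (vvl) with enhanced green fluorescent protein. There was 1 group of 2 biological replicates, both whole embryos of the strain vvl-GFP aged 0 to 24 h, with no other genotype, treatment or age to set against them. The labels describe the precipitation as done with an antibody against GFP and elsewhere give the antibody target as vvl. A control experiment that the labels name as possible was not analysed here. Whole embryos mix every cell type of the stage, so that binding in few cells and weak binding in many cells cannot be told apart. No sequencing depth is given by peak lists, and the depth behind each peak is unknown. The main peak set was the authors' conservative list of 8309 peaks in dm6 coordinates, which rests on both replicates. The strongest point of a peak is called its summit, and the peak signal is the authors' own value, used only to rank and describe peaks within a list.

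The proteasome consists of a barrel-shaped core particle, built of alpha and beta rings, and a regulatory particle at its ends. The inner beta rings carry the proteolytic sites, and the outer alpha rings form the gate. In the regulatory particle, the Rpt ATPases unfold substrates and the Rpn subunits recognise, deubiquitinate and position them. Nearly every cell needs these subunits in fixed proportions, and in flies the cap'n'collar factor cnc is known to raise their transcription when proteasome activity is low. In Drosophila, several core particle subunits have paralogues, such as Prosalpha6T, that are known from the testis.

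Summits lay in the windows of most core subunit genes and of nearly no paralogue. The window is the gene body with 2 kb on each side. Of the core genes, 20 of 32, or 62.5% (exact binomial 95% interval 43.7 to 78.9), held a summit of the conservative list, against 40.4% of genes of the same window length and 47.0% of all 13945 genes. Of the paralogues, 1 of 16, or 6.25% (0.158 to 30.2), held a summit, against 35.7% of genes of the same window length. The paralogues with names ending in T, T1, T2 or R were at 0 of 10, with an exact upper bound of 30.8%, and those ending in R1 or R2 at 1 of 6. Lengths differed little, since the median window was 5390 bp in core genes and 5282 bp in paralogues. The intervals cover counting error over genes, which are not replicates, and the differences were not tested.

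Peaks at a gene's own start separated the groups in the same order. A summit within 500 bp of an own transcription start site (TSS) was found at 15 of 32 core genes, or 46.9% (29.1 to 65.3), against 23.0% of length-matched genes and 28.7% of all genes. None of the 16 paralogues had such a summit (exact upper bound 20.6%), against 19.8% of length-matched genes.

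Core subunit genes also more often share their start region with another gene, and genes that do so had more peaks. The part of this in the counts above was not tested. A divergent promoter, here the TSS of another protein-coding gene on the opposite strand within 500 bp upstream, was present at 21 of 32 core genes (65.6%), at 3 of 16 paralogues (18.8%, Prosalpha1R, Prosbeta2R2 and Rpt3R) and at 27.4% of all genes. Among core genes with such a promoter, 11 of 21 had a summit at their own TSS, or 52.4%, against 48.4% of all divergent genes. Among the other core genes it was 4 of 11, or 36.4%, against 21.3%. When other genes were matched to the core genes on divergent promoters in place of length, 39.1% of them had a summit at their own TSS, which corresponds to 12.5 of 32 genes and lies inside the interval of the core genes. In windows, 55.7% of the genes matched in this way had a summit, or 17.8 of 32, beside the 20 observed. Matching left the paralogues with 0 observed beside 4.22 of 16 at the own TSS, and with 1 beside 7.22 of 16 in the window. Beside genes matched in this way, which were not matched on length, the core genes stood closer to the background than beside length-matched genes. The paralogue backgrounds of 26.4% at the own TSS and 45.1% in windows were above the length-matched 19.8% and 35.7%. They were below the 28.7% and 47.0% of all genes. The paralogues thus stood below each of these backgrounds, and the gap was smallest beside length-matched genes.

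**Figure D1:**
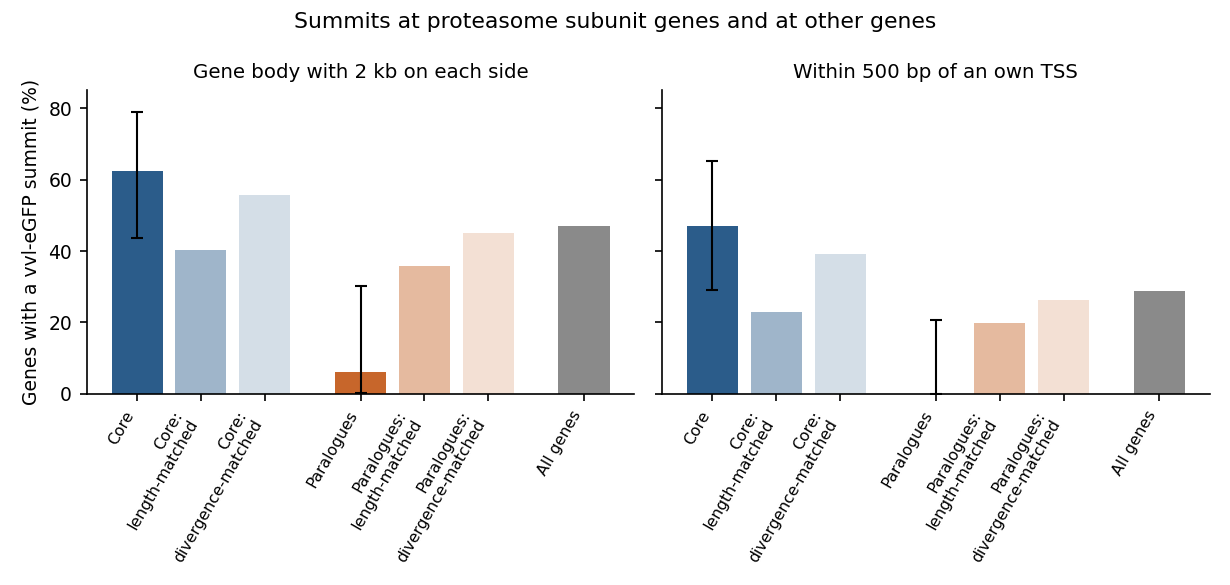
Share of genes with a vvl-eGFP summit in the gene window (left) and within 500 bp of an own TSS (right), in percent, for core subunit genes (blue) and paralogues (orange) with exact binomial 95% intervals. Paler bars give other genes matched on window length or on divergent promoters, and the grey bar gives all protein-coding genes. Core genes stand at 62.5% and 46.9%, and paralogues at 6.25% and 0.

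Among the classes of member genes, the lid of the regulatory particle had the most peaks at own gene starts, with 6 of its 8 genes named Rpn. The lid subunit gene Sem1 falls outside the choice by name and had no summit. The lid's strongest own-promoter peak was that of Rpn3, a structural lid subunit, at 2L:19051681-19051904. Its summit lay 20 bp downstream of the TSS, had a signal of 431.2 and ranked 591 of 8309. In the replicates' own ranked lists this peak had signals of 209.0 in replicate 1 and 228.4 in replicate 2. Rpn6, a scaffold of the lid, followed with a signal of 286.1 (rank 1287) at 2R:14752293-14752445, with 132.7 in replicate 1 and 158.5 in replicate 2. That summit was 128 bp from a Rpn6 TSS and 122 bp from the TSS of ave, so the peak cannot be given to either gene. Rpn11, the deubiquitinase of the lid, had a peak at 2L:5060099-5060233 with a signal of 203.0 (rank 2335), 338 bp upstream of its TSS, with 124.7 in replicate 1 and 70.2 in replicate 2. The peak of Rpn12, at 3L:16582699-16583094, had a signal of 154.8 (rank 3652) and lay 131 bp upstream, with 90.0 and 61.0 in replicates 1 and 2. Rpn5 (131.8, rank 4592) and Rpn8 (84.5, rank 7426) had weaker peaks whose summits were nearer to the starts of Hat1 and Slik, at 85 and 136 bp. Rpn7 and Rpn9 were the 2 lid genes named Rpn with no summit in their windows.

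Of the other Rpn genes, 2 of 4 had a peak at their own start. Rpn13, a ubiquitin receptor, had a summit 92 bp upstream of its TSS at 2R:13960298-13960693 with a signal of 193.3 (rank 2527), and 103.1 and 82.4 in replicates 1 and 2. Rpn2, a large scaffold of the regulatory particle, had a summit 29 bp upstream at 3R:29153297-29153692 with a signal of 138.1 (rank 4276). The replicates differed there, with 98.3 in replicate 1 and 31.3 in replicate 2, and the peak was in the thresholded list of replicate 1 and not in that of replicate 2. No summit was found in the windows of Rpn1, the other large scaffold, and Rpn10, a ubiquitin receptor.

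In the ATPase ring, 1 of 6 genes had a peak at its own start. This was Rpt5, with a summit 16 bp downstream of the TSS at 3R:23752694-23753089 and a signal of 161.2 (rank 3435), with 87.5 and 70.2 in replicates 1 and 2. A second listed Rpt5 peak, 215 bp downstream, had a signal of 2.93 and ranked 8291. It overlapped the first and had no counterpart in either replicate's ranked list. All 106 peaks of the conservative list with a signal under 10 overlapped another peak, and this entry adds no gene to the counts. Rpt4 and Rpt6 had a summit in the window, each more than 3 kb from their own TSS, and Rpt1, Rpt2 and Rpt3 had none.

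The sequences under the lid peaks of Rpn11 and Rpn12 are shown because they carry the DNA replication-related element (DRE), TATCGATA, the word with the largest excess in core promoters over all promoters among the 9 words searched. The DRE is bound by the factor DREF, which is known in flies for promoters of housekeeping and proliferation genes. Each run is non-exonic sequence within 100 bp of the summit, Release 6 assembly, on the strand of the gene. Capitals mark the words searched, here the DRE, CCAAT and ACACTG (as CAGTGT on this strand).
Rpn11, 2L:5060028-5060228, minus strand: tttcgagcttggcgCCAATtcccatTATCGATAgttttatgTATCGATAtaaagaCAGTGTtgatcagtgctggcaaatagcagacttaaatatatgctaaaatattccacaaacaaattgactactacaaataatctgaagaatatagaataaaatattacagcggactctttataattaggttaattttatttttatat
Rpn12, 3L:16582797-16582997, plus strand: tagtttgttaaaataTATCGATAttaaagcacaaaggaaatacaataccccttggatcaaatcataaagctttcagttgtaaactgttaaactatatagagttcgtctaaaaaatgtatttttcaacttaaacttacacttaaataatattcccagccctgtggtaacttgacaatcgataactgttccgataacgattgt
The Rpn11 run holds 2 copies of the DRE and the Rpn12 run holds 1. The POU octamer ATGCAAAT, the word that POU factors are known to bind, is in neither.

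The beta ring had 6 of 7 genes with a summit in the window and 4 with a summit at the own start. Prosbeta1, which carries the caspase-like site, had a signal of 231.5 (rank 1889) at 2R:16014788-16014943, and 108.7 and 120.5 in replicates 1 and 2. The summit was 93 bp from the Prosbeta1 TSS and 28 bp from that of Rrp42, an exosome subunit gene. Prosbeta2, with the trypsin-like site, had a signal of 222.8 (rank 2002) at 3L:14999643-15000038, 110 bp upstream of its TSS, with 165.7 in replicate 1 and 68.1 in replicate 2. Prosbeta5, with the chymotrypsin-like site, had a summit 31 bp upstream of its TSS, a signal of 105.8 (rank 6065) and values of 50.2 and 57.0 in replicates 1 and 2. All 3 genes of the proteolytic subunits thus had a peak within 110 bp of their starts. The fourth was Prosbeta7 (86.7, rank 7308), with 69.5 and 30.4 in replicates 1 and 2. Its summit lay 17 bp upstream of the more downstream of its 2 TSSs, inside the gene. This peak was in neither replicate's thresholded list and not in the authors' broader list. Prosbeta3 and Prosbeta6 had summits near neighbours only, and Prosbeta4 had none.

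The alpha ring had 2 of 7 genes with a summit at the own start. Prosalpha3 had a summit 59 bp upstream of its TSS at 2R:20994746-20994907 with a signal of 165.5 (rank 3275), and 81.4 and 107.7 in replicates 1 and 2. Prosalpha4 had a weak one (99.1, rank 6528) 313 bp upstream, which was 40 bp from the TSS of kat80. Prosalpha1 had a summit in the window only, and Prosalpha2, Prosalpha5, Prosalpha6 and Prosalpha7 had none. The 5 subunit classes hold 4 to 8 member genes each, and whether they differ in their share of peaks was not tested.

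Peaks in the windows of proteasome genes lay mostly at gene starts, as they did in other windows of this length. Of the 31 summits in member windows, 30 (96.8%) were within 500 bp of the TSS of some gene, against 84.3% of summits in length-matched windows and 42.8% of all peaks. The difference was not tested, and the remaining one was in a 5' UTR near eas, in the window of Prosalpha4. The 16 summits at own starts lay 16 to 338 bp from the TSS, with a median of 102 bp, and 11 of them within 150 bp. The nearest TSS was the member's own for 11 of the 31 summits and another gene's for 20. Counting only genes whose own TSS was the nearest left 10 core genes and no paralogue, since the summits at Prosalpha4, Prosbeta1, Rpn5, Rpn6 and Rpn8 were nearer to a neighbour. At Rpn6, Rpn8 and Prosbeta7 the TSS concerned was not the most upstream of the gene. In all, 13 core genes had a summit within 500 bp of the most upstream TSS.

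The 2 strongest peaks in these windows lay at the starts of neighbours, and the next was that of Rpn3 at its own start. The highest was at 3R:5791641-5791922 in the Rpn5 window, with a signal of 722.1 (rank 214), and lay 99 bp from the TSS of Hpf1 and 2287 bp from that of Rpn5. The summit in the Prosalpha1 window (451.2, rank 539) was 86 bp from the TSS of phr and 3303 bp from that of Prosalpha1. The Prosalpha4 window held summits with signals of 379.5 and 369.2, at 376 and 945 bp from the TSS of eas. Prosbeta6 lay between summits at CG4098 (304.9) and CG4101 (251.2). The summits of Rpt4, Rpt6 and Prosbeta3 were nearest to Top3beta (169.3), the start shared by SLIRP1 and anox (204.8) and CG11980 (75.7). Further neighbours with a summit in a core window were eIF2D (249.4) and rdog (125.1) at Rpn2, qtc (219.5) at Rpn11, AGO1 (118.3) at Rpn13 and UQCR-C2 (112.8) at Rpn12.

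**Figure D2:**
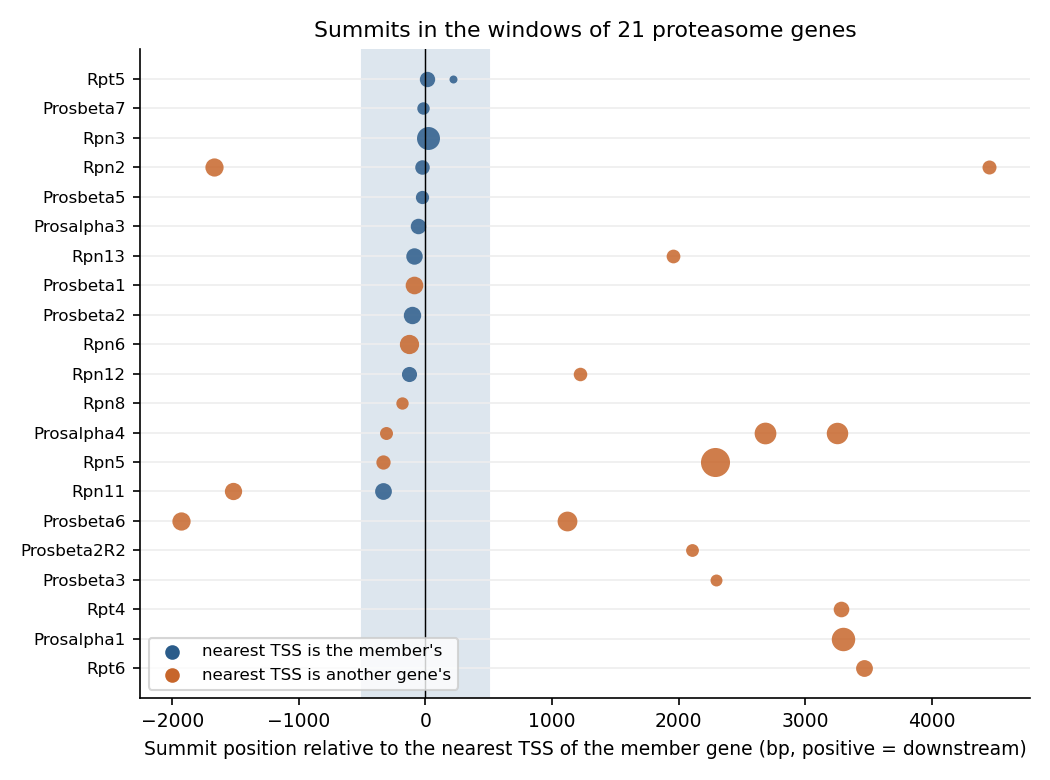
Position of each of the 31 summits relative to the nearest TSS of the member gene, in bp, for the 20 core genes and 1 paralogue with a summit in the window. Point area grows with the authors' peak signal, blue points have the member's TSS as the nearest and orange points another gene's, and the shaded band marks 500 bp on each side. The 11 blue points lie in the band, and the largest orange points lie more than 1 kb downstream.

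The own-promoter peaks were of ordinary strength for the list. Their median signal was 158 (range 2.93 to 431), against 148 for all 3560 promoter peaks and 141 for all peaks. By rank, 9 of the 16 were in the upper 50% of the list. Both replicates had a counterpart in their ranked lists for 14 of the 16 peaks, and the signal was higher in replicate 1 for 7 of these 14. Spearman's rho of the replicates' signals over these 14 peaks was 0.669, given as a description of peaks that were chosen for being found in both replicates together. A thresholded summit within 100 bp was found for 10 of the 16 peaks in replicate 1 and for 13 in replicate 2, against 77.0% and 72.8% of all promoter peaks in replicates 1 and 2.

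Support by both replicates separately was found for 9 of the 15 core genes. By peak it was 9 of the 16 own-promoter peaks. This is near the 60.6% of all promoter peaks that had a thresholded summit within 100 bp in both replicates. Rpn3, Rpn6, Rpn11, Rpn12, Rpn13, Prosbeta1, Prosbeta2, Prosalpha3 and Rpt5 had an own-TSS summit in each replicate's thresholded list. Rpn2 had one in replicate 1 alone, and Prosalpha4, Prosbeta5, Rpn5 and Rpn8 in replicate 2 alone. Prosbeta7 had one in neither. Signals need not be on a common scale between the replicates' lists.

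**Figure D3:**
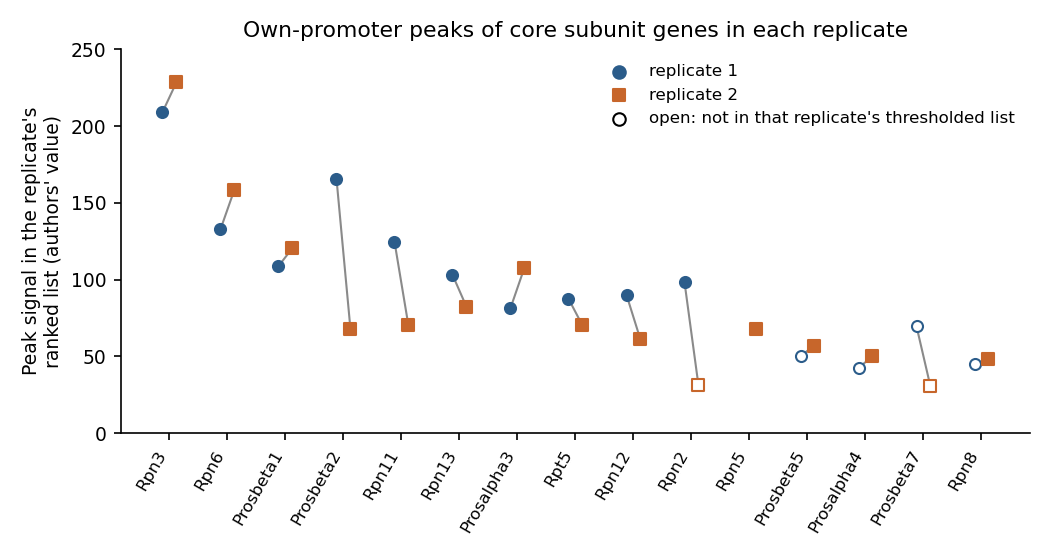
Signal of the own-promoter peaks of 15 core subunit genes in the ranked lists of replicate 1 (blue circles) and replicate 2 (orange squares), ordered by signal in the conservative list. Open symbols mark peaks that are not in that replicate's thresholded list, and lines join the same peak. Rpn3 is highest in both replicates, and Rpn5 has no replicate 1 summit within 100 bp.

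The 12 core genes with no summit in the window were Prosalpha2, Prosalpha5, Prosalpha6, Prosalpha7, Prosbeta4, Rpn1, Rpn7, Rpn9, Rpn10, Rpt1, Rpt2 and Rpt3. From their gene bodies the nearest summit was 2193 bp (Rpt2) to 19835 bp (Rpn10) away, with a median of 5562.5 bp. In the ranked list behind the conservative list, which also holds peaks under the threshold, 8 of the 12 (66.7%) had a peak within 500 bp of an own TSS. The share of all genes was 65.2%, but these include the 28.7% with a conservative summit there, which have a ranked peak by definition. The share among other genes with no summit in the window is not given. The signal of the best such peak was 28.3 at Rpn7, 34.3 at Rpt3, 40.4 at Rpt2, 47.8 at Prosalpha6, 53.1 at Prosalpha5, 55.7 at Rpn9, 58.2 at Prosalpha7 and 59.7 at Rpn1. The authors' irreproducible discovery rate (IDR), which scores how far a peak's rank is shared by replicates, has to be 0.01 or less for a peak to be listed, a −log10 of 2 or more. Among these 8 peaks the highest −log10 IDR was 1.52. No ranked peak was found at Prosalpha2, Prosbeta4, Rpn10 and Rpt1. In single replicates these 4 genes did have ranked peaks at the start. Rpn10 had one with a signal of 70.2 in replicate 1, which is also in that replicate's thresholded list, and none in replicate 2, whose thresholded list has a summit elsewhere in the Rpn10 window. Prosbeta4 had one of 17.1 in replicate 1, and Prosalpha2 and Rpt1 had ones of 19.8 and 15.6 in replicate 2.

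With peaks of any rank counted, core genes and paralogues lay on opposite sides of the share of all genes. Shares for genes matched on length or on divergent promoters are not given for these peaks. A ranked peak of any strength lay within 500 bp of an own TSS at 27 of 32 core genes, at 2 of 16 paralogues and at 65.2% of all genes. In the ranked list of replicate 1 alone it was 29 core genes and 2 paralogues, against 64.9% of all genes. In that of replicate 2 it was 28 core genes and 7 paralogues, against 72.3% of all genes. The replicate 2 peaks of the paralogues Prosalpha4T2, Prosbeta4R2, Prosbeta5R1, Rpn13R and Rpt4R had signals of 5.1, 14.7, 15.2, 12.3 and 18.0.

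**Figure D4:**
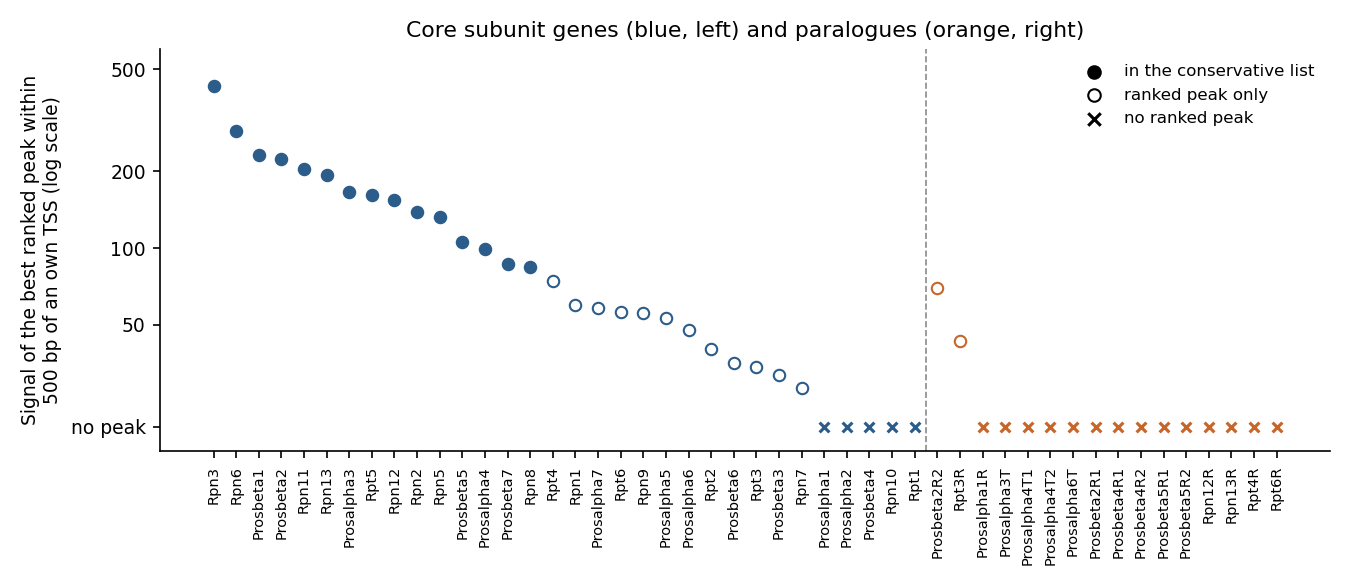
Signal, on a log axis, of the best peak within 500 bp of an own TSS in the ranked list behind the conservative list, for the 32 core subunit genes (blue, left) and 16 paralogues (orange, right). Filled circles are in the conservative list, open circles are ranked only, and crosses on the bottom line mark genes with no ranked peak. Crosses stand at 5 core genes and 14 paralogues.

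The paralogue with a summit in its window was Prosbeta2R2, a relative of Prosbeta2. Its summit, at 3R:5217224-5217619, had a signal of 95.2 (rank 6797), with 60.7 in replicate 1 and 39.6 in replicate 2. It lay 34 bp from the TSS of cno, the gene of the junction protein canoe, and 2106 bp from that of Prosbeta2R2. Within 500 bp of its own TSS Prosbeta2R2 had a ranked peak of 69.5 (−log10 IDR 1.59), which is in the broader list and not in the conservative one. The TSS of CG1116, on the opposite strand, lay 129 bp from that of Prosbeta2R2, so this peak cannot be given to either gene. Rpt3R, a relative of the ATPase Rpt3, had a ranked peak of 43.2 (−log10 IDR 0.302). A TSS of Alg12, on the opposite strand, lay 19 bp from one of Rpt3R, so this peak cannot be given to either gene. The remaining 14 paralogues had no ranked peak at an own TSS. For the 15 paralogues with no summit in the window, the nearest summit was 2397 bp (Prosalpha3T) to 144727 bp (Prosbeta5R2) from the gene body, with a median of 11415 bp.

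Prosalpha1 and Prosalpha1R stand apart from the other members in that their start regions are copies. All 971 words of 31 bases within 500 bp of the TSS also occurred elsewhere in the Release 6 genome for both genes, so short reads from them may not have been placed uniquely, and their lack of a peak at the start is uncertain. Of the other members, Rpn3 had 10.7% repeated words, Prosalpha3 7.11% and Rpt6 4.74%, and the remaining 28 core genes and 15 paralogues had none. Without Prosalpha1 and Prosalpha1R the counts at the own TSS were 15 of 31 core genes and 0 of 15 paralogues, and in the window 19 of 31 and 1 of 15.

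Among the 9 words searched, the DRE had the largest gap between core promoters and those of all genes. Within 250 bp upstream to 50 bp downstream of the most upstream TSS, on both strands, TATCGATA was present at 12 of 32 core genes (37.5%), at 0 of 16 paralogues and at 9.36% of all genes. Divergent promoters carry it more often, at 17.4% of all genes that have one and at 6.32% of those that do not. In core genes the shares were 38.1% and 36.4%. Genes matched on divergent promoters carried it in 13.5% of cases, which corresponds to 4.33 of 32 genes beside the 12 observed. By class of member genes, the lid had it at 4 of 8 genes, the alpha ring at 3 of 7, the beta ring at 3 of 7, the ATPase ring at 1 of 6 and the other Rpn genes at 1 of 4.

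Of these 12 sites, 8 are shown, as the instances of a word that the choice by name did not use. The other 20 core promoters lack it, and CCAAT (15 of 32) and ACACTG (12 of 32) were in at least as many. Each is 30 bases on the strand of the gene, Release 6 assembly, with the DRE in capitals.
Prosbeta2, 3L:14999930-14999959, plus strand: ccatgaatataTATCGATAcaatatcgatt
Rpn12, 3L:16582801-16582830, plus strand: ttgttaaaataTATCGATAttaaagcacaa
Rpn3, 2L:19051582-19051611, plus strand: tgttatcggagTATCGATAtcgaaaaggct
Rpt5, 3R:23752819-23752848, plus strand: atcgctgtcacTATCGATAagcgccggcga
Prosalpha6, 2L:10221324-10221353, plus strand: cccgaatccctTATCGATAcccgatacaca
Prosbeta6, 3L:16610444-16610473, minus strand: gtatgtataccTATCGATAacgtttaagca
Rpn7, 3R:22462033-22462062, minus strand: gcggtataattTATCGATAattttggggtc
Rpn9, 3R:23733418-23733447, minus strand: gcccggttaaaTATCGATAttctcgcggat
The first 4 genes had a vvl-eGFP summit at their own TSS and the last 4 did not. The other 4 genes with the word were Prosalpha3, Prosbeta1 and Rpn13, which had a summit, and Prosalpha5, which had none. Across the 12 sites the centre of the word lay between 214 bp upstream and 29 bp downstream of the TSS, with a median of 42 bp upstream, and 8 of 12 within 100 bp.

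Core genes with the DRE in this promoter window had a summit at their own TSS in 7 of 12 cases (58.3%), and those without it there in 8 of 20 (40.0%). Rpn11 is among the 20, because its peak and the 2 DRE copies under it lie further upstream than the 250 bp of the window. Over all genes these shares were 43.8% and 27.1%. Matching other genes on both divergent promoter and DRE gave 41.1%, or 13.2 of 32 genes, beside the 15 observed. For the paralogues it gave 4.07 of 16 beside 0. Whether the word and the peaks are linked was not tested.

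At the summits themselves, the DRE lay within 100 bp of 6 of the 16 own-promoter summits (37.5%), against 8.31% of all 3560 promoter summits. These were the summits of Prosalpha3, Prosbeta1, Rpn11, Rpn12, Rpn3 and Rpt5. The Rpn3 site shown above lay 214 bp from the Rpn3 summit, so the copy counted here is another. Within 50 bp of the summit the share was 12.5% of the 16, against 4.35% of promoter summits. The POU octamer was at none of the 16, against 3.88% of promoter summits, and in none of the 48 member promoters, against 3.47% of all genes. A missing word says only that these letters are not in the window.

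Other words at core promoters were closer to the background. ACACTG was present in 12 core promoters (37.5%), in 1 paralogue promoter and in 18.9% of all genes. Within 100 bp of summits, ACACTG was at 37.5% of own-promoter summits, against 711 of 3560 promoter summits. Within 50 bp it was at 5 of the 16 own-promoter summits (31.2%), against 375 of 3560 promoter summits. The DRE was at 2 of the 16 (12.5%) there, and the difference was not tested. No source is given for ACACTG, so it may not stand on the same footing as words known from other work. GGTCACAC, the word of the motif 1 binding protein M1BP, whose last 4 letters can also be the first 4 of ACACTG, was in 5 core promoters (15.6%), in 0 paralogue promoters and in 7.7% of all genes. CCAAT did not separate the groups, at 46.9% of core genes, 43.8% of paralogues and 46.7% of all genes. The antioxidant response core TGACNNNGC, which cnc and its Maf partner are known to bind, was in 5 core promoters (Prosalpha2, Prosbeta3, Rpn1, Rpn7 and Rpt6), in 1 paralogue promoter (Prosbeta4R2) and in 8.63% of all genes. None of these 5 core genes had a summit at its own TSS, beside 15 of all 32 core genes. The share among all genes with this word is not given, and the difference was not tested. Within 100 bp of summits, the word was at 1 of the 16 own-promoter summits (6.25%, that of Prosbeta7, which lies at a more downstream TSS of the gene), against 6.43% of promoter summits. GAGAGAG and TATAAAAG were in no core promoter and in 2 and 1 paralogue promoters, against 5.87% and 5.69% of all genes. GGTGGCAAA, known as the proteasome-associated control element of budding yeast, was in no member promoter and in 0.48% of all genes.

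Genes that assemble, regulate or feed the proteasome were mixed. Of 18 such genes outside the named families, 9 had a summit in the window, against 48.5% of genes of the same window length, and 7 (38.9%) had one within 500 bp of an own TSS, against 31.5% of genes of the same window length and 28.7% of all genes. Pomp, the chaperone that matures the core particle, had a summit with a signal of 444.8 (rank 564) 248 bp from its TSS. Uch-L5, a deubiquitinase that docks on Rpn13, had one 18 bp from its TSS (123.3), and the ubiquitin-activating enzyme gene Uba1 had one at 341 bp (133.3). At the regulator cnc there were 6 summits in a window of 45132 bp, the best with 185.4, and at its inhibitor Keap1 also 6, the best with 498.8 and nearest to kuk. The best summits at PI31 (126.2), ntc (320.7) and maf-S (105.3) were nearest to the neighbours ADD1, CG32264 and CG11110, and that of the activator gene REG (183.2) was 1909 bp from its TSS. No summit was found for Sem1, a small lid subunit gene, nor for the deubiquitinase gene Usp14, the shuttle receptor genes Rad23, Ubqn and rngo, the polyubiquitin genes Ubi-p63E and Ubi-p5E, TER94 and Pngl.

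Ribosomal protein genes, another large set of genes for a constitutive machine, also had summits at shares above those of genes of the same window length. The core proteasome share of 62.5% in windows and 46.9% at the own TSS stood beside 84.8% and 77.2% of 92 cytoplasmic ribosomal protein genes, and beside 69.9% and 50.7% of 73 mitochondrial ones. Genes of the same window length were at 37.8% and 21.2% for the cytoplasmic set, and at 33.7% and 17.1% for the mitochondrial set. For the core proteasome genes these shares were 40.4% and 23.0%. The ribosomal sets were taken by name with no paralogues set apart, unlike the core proteasome genes. Differences between the 3 sets were not tested.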

How the data were processed

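Members and lists were chosen with earlier results of these data known, so all counts are descriptions without p-values. The authors deposited 8 peak lists in dm6 coordinates. In each deposited list a peak has a signal and a score, and in the ranked ones also a −log10 IDR. No source used here names an aligner or a peak caller. Of 8493 ranked peaks at or past the IDR threshold, 184 are absent from the conservative list, and none lay in a member window.

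Genes and TSSs came from Ensembl release 115 and sequence from RefSeq's Release 6 assembly, in which 13943 of 13944 genes matched by symbol had the same start and end. Summits were counted per gene window and within 500 bp of any TSS of the gene. For each member, the 200 other protein-coding genes nearest in window length gave the length-matched share, averaged over members. Words were sought on both strands. Replicate values are the nearest ranked summit within 100 bp. Every member was named. Full values were given for the 10 highest own-promoter peaks, for the paralogue with a summit, and for core genes without one. Matching on divergent promoters and the DRE, and the search for repeated 31-base words, were added after seeing the data. The counting code was tested on simulated data. Python 3.11.15, pandas 2.3.3, numpy 2.4.6 and scipy 1.17.1 were used.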

Additional observations from a re-analysis of the deposited data

How the results depend on the processing

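The core counts of 20 genes in the window and 15 at the own TSS were 20 and 14 with the broader list, which put 1 paralogue (Prosbeta2R2) at its own TSS and the length-matched shares for core genes and paralogues at 47.8% and 42.4%. With the replicates' own lists, the ranges were 18 to 19 and 11 to 13 for core genes, 1 to 1 and 0 to 0 for paralogues, and 38.9% to 39.5% and 33.8% to 36.1% for the length-matched shares. The 50% of peaks with the highest signal gave 16 core genes in the window and 9 at the own TSS, 0 paralogues in the window, and matched shares of 26.6% and 23.9%. With no flank, 5 core genes and 0 paralogues held a summit, against 6.59% and 5.0% of matched genes. With a flank of 10 kb it was 28 core genes and 5 paralogues, against 71.9% and 68.2%. Without matching, the share was 47.0% for both. Matching on divergent promoters gave 55.7% and 45.1% in windows and 39.1% and 26.4% at the own TSS, and adding the DRE gave 41.1% and 25.5%. At the own TSS, the broader list had 43.8% of core genes against 35.1% of all genes, replicate 1 alone 34.4% against 27.8%, replicate 2 alone 40.6% against 27.4%, and the strongest 50% of peaks 28.1% against 17.3%. Within 50 bp of own-promoter summits, ACACTG was at 31.2%, or 5 of 16, against 375 of 3560 promoter summits. TATCGATA and CCAAT were each at 12.5%, against 155 and 625 of 3560, and GGTCACAC and TGACNNNGC at 0. At this distance ACACTG was thus at more of the own-promoter summits than TATCGATA, a difference that was not tested. Within 200 bp, TATCGATA, CCAAT and ACACTG were each at 8 of 16, against 427, 1940 and 1117 of 3560 promoter summits, and GGTCACAC and TGACNNNGC were each at 2 of 16, against 383 and 441. No paired analysis was possible because there is 1 group. Depth is unknown, so a gene without a peak may lie under the detection limit.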
